A study of Homo sapiens with 12 samples.

Results

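A2M and 8 complement genes, C3, C1R, C1S, CFB, CFD, CFI, SERPING1 and CD55, were followed through a sequencing study. Its human cells, labelled as 2 liver tumour lines, were treated with geniposide, a plant iridoid glycoside, or left untreated. These 9 genes, out of 58735 in the deposited table, were taken by symbol, and they were selected on their measured levels and geniposide differences, so their own values are given below as a description with no test. The libraries came from cells labelled HepG2, a hepatoblastoma line, and Huh7, a hepatocellular carcinoma line. In each line 3 libraries came from cells given geniposide for 48 h and 3 from control cells without it, collected at the same time, which makes 4 groups and 12 libraries. The labels name no dose and no genetic change, and each line, as labelled, stems from a single tumour.

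Complement is a set of plasma and membrane proteins that tags microbes and damaged cells. The classical route starts with the C1 complex, in which the proteases C1r and C1s are activated by C1q. The alternative route is amplified by factor B and factor D, and all routes meet at the cleavage of C3. C1 inhibitor, factor I and the membrane protein CD55 hold the cascade back. Alpha-2-macroglobulin, the product of A2M, traps proteases of many kinds and belongs to the same protein family as C3. Hepatocytes are the main source of most of these plasma proteins, and factor D is made largely by fat cells.

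Each library held between 15056655 and 17211659 fragments assigned to genes. Levels are FPKM, the fragments per kilobase of gene scaled to library size, as deposited. The cell names are used below as labels, since 0 of 10 hepatocyte markers reached 1 FPKM in any group, and ALB, TTR, AFP, APOB and APOH were at 0 in both HepG2-labelled groups. None of the leukocyte, endothelial or adipocyte markers reached 1 FPKM in any group either. The summed fibroblast and stellate cell markers moved with treatment in both lines, and in HepG2-labelled cells 6 of 7 reached 1 FPKM. Their summed level there was 105.9 to 109.5 FPKM with geniposide and 73.3 to 74.9 FPKM without it, with COL1A2 at 0. LUM, at 59.5 against 35.4 FPKM, COL3A1, DCN and ACTA2 had the higher means with geniposide, while PDGFRB, at 2.09 against 4.33 FPKM, and COL1A1, at 10.3 against 11.9 FPKM, had the lower ones. In Huh7-labelled cells the sum was 7.31 to 9.53 FPKM with geniposide and 5.2 to 5.65 FPKM without it. COL1A1, at 4.80 against 3.42 FPKM, and ACTA2, at 1.82 against 0.397 FPKM, had the higher means with geniposide there. COL3A1, at 1.17 against 1.24 FPKM, and LUM, at 0.0964 against 0.223 FPKM, had the lower ones. The part of these markers in the results below was not tested. Summed cholangiocyte markers were 72.4 to 75.9 FPKM with geniposide and 275.3 to 287.5 FPKM without it in HepG2-labelled cells. Nearly all of that sum was KRT7, while SOX9 had 0.590 against 0.257 FPKM. The third geniposide library of the Huh7-labelled cells stood apart. Its root mean square distance to the other two was 0.412 on the log2(FPKM + 1) scale, against 0.277 and 0.284 for those libraries and at most 0.243 in the other groups. Ratios of the 9 genes in Huh7-labelled cells are given with and without it.

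A2M showed the widest difference of the 9 genes. In HepG2-labelled cells it stood at 10.97, 10.6 and 9.35 FPKM with geniposide and at 1.53, 1.79 and 1.45 FPKM without it, from 934 to 1024 fragments against 133 to 173. All 3 treated libraries lay above all 3 untreated ones. The group means were 10.3 ± 0.849 and 1.59 ± 0.177 FPKM (SD, n = 3 each), a ratio of 6.49. On the log2(FPKM + 1) scale, where 1 FPKM is added before the logarithm and low levels are therefore compressed, the difference was 2.13 ± 0.08 (SE). By size it ranked 5 among the 15518 genes that reached 1 FPKM in at least 3 libraries. Every SE of such a difference rests on a spread shared by all 4 groups of the model. In bulk RNA a change in the number of cells of a type and a change in RNA per cell cannot be told apart. In Huh7-labelled cells A2M had 1, 1 and 7 fragments with geniposide and 2, 1 and 2 without it. All but 1 of these libraries lay under 3 fragments, the limit that a count of 0 allows, so no fold is given there, and the 7 fragments came from the library that stood apart.

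The A2M gene lies on the minus strand of chromosome 12, at chr12:9067664-9116229 of GRCh38. It shares 561 exonic bases with A2M-AS1, an antisense RNA gene, and the library protocol marks no strand, so fragments of that stretch cannot be assigned to one of them. A2M-AS1 had 1.06 ± 0.0547 FPKM with geniposide and 1.55 ± 0.196 FPKM without it in HepG2-labelled cells (SD, n = 3 each). It was lower with treatment by limma, adjusted over all genes tested (−0.31 ± 0.09, adjusted p = 0.0155). The 2 protein-coding genes within 100 kb, a distance chosen after the values were seen, also fell in these cells. Of all genes tested, 21.5% fell there. PZP, which encodes a close relative of alpha-2-macroglobulin, had 5.91 ± 0.610 against 8.77 ± 0.413 FPKM (−0.50 ± 0.07, limma adjusted p = 0.000269). KLRG1, a lymphocyte receptor gene, had 0.494 ± 0.0214 against 1.24 ± 0.269 FPKM (−0.58 ± 0.10, limma adjusted p = 0.00101). Of these 4 genes, A2M alone was higher with geniposide.

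**Figure D1:**
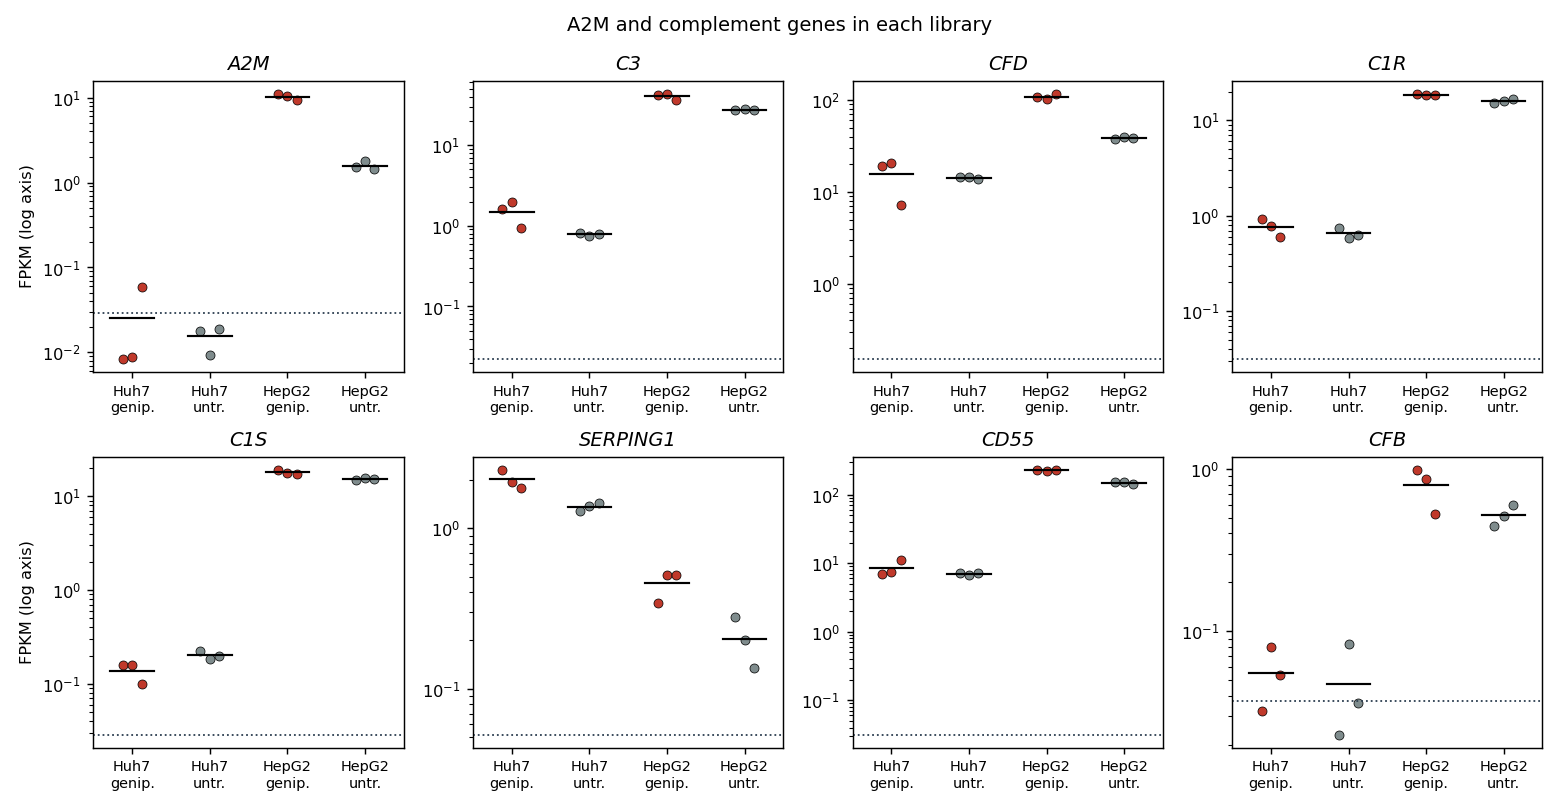
FPKM of 8 of the 9 genes in each library (log axis), with geniposide groups in red, untreated groups in grey, group means as bars and the mean level of 3 fragments as a dotted line. CFI, with at most 2 fragments in a library, is left out. A2M is above 9 FPKM in the treated HepG2-labelled libraries and under 2 FPKM in the untreated ones, and 1 Huh7-labelled geniposide library departs from the other two for CFD, C3 and CD55.

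C3, the protein cleaved by every route, was measured at 41.9, 42.8 and 36.7 FPKM in HepG2-labelled cells with geniposide and at 27.3, 27.97 and 27.1 FPKM without it. The groups did not overlap, and the ratio of means was 1.47 (log2 difference 0.54 ± 0.13). Huh7-labelled cells held far less C3, at 1.61, 1.95 and 0.937 FPKM with geniposide and 0.825, 0.742 and 0.790 FPKM without it. Those groups did not overlap either, with a ratio of 1.91, or 2.27 without the library that stood apart. On the log2 scale the Huh7 difference was 0.46 ± 0.13, or 0.64 without that library. It was 0.94 with voom on the recovered fragments, where the 1 FPKM is not added. C3 is on the minus strand at chr19:6677704-6730562.

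The proteases of the C1 complex, C1R and C1S, lie close together on chromosome 12, at chr12:7080199-7092607 on the minus strand and chr12:6988259-7071032 on the plus strand. In HepG2-labelled cells C1R had 18.7, 18.3 and 18.3 FPKM with geniposide and 15.2, 15.9 and 16.7 FPKM without it. C1S had 19.0, 17.7 and 17.1 FPKM against 15.0, 15.5 and 15.4 FPKM. In both genes every treated library was above every untreated one, but by little, with ratios of 1.16 for C1R and 1.17 for C1S. The proteases were present at near equal levels per length in these cells, with a C1R to C1S ratio of 1.03 ± 0.0425 with geniposide and 1.04 ± 0.0378 without it (SD, n = 3 each).

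In Huh7-labelled cells both were under 1 FPKM and out of balance. C1S had 0.158, 0.159 and 0.0999 FPKM with geniposide and 0.223, 0.184 and 0.196 FPKM without it. It was the only one of the 9 genes with all treated libraries below all untreated ones there, on 12 to 19 fragments against 20 to 25. C1R had 0.929, 0.775 and 0.594 FPKM against 0.736, 0.585 and 0.636 FPKM, and its groups overlapped. The ratio of means was 0.690 for C1S and 1.17 for C1R, or 0.787 and 1.31 without the library that stood apart. The C1R to C1S ratio within a library was 5.57 ± 0.602 with geniposide and 3.24 ± 0.0549 without it. C1R shares 672 exonic bases with C1RL on the same strand and C1S shares 229 with EMG1, and the sources used here do not give how such fragments were counted.

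CFD, the gene of factor D, had the second widest difference. In HepG2-labelled cells its levels were 108, 103 and 116 FPKM with geniposide and 37.8, 39.9 and 39.0 FPKM without it. The groups were far apart, with a ratio of 2.80 and a log2 difference of 1.46 ± 0.28, which ranked 58 by size among the genes tested. That SE is shared by both lines and takes in the Huh7-labelled library that stood apart. Of the adipocyte markers 0 of 4 reached 1 FPKM, and ADIPOQ was at 0 in both HepG2-labelled groups. Their sum was 0.437 to 0.666 FPKM with geniposide and 0.0521 to 0.219 FPKM without it, most of it PLIN1, and its part in the CFD values was not tested. In Huh7-labelled cells CFD had 19.0, 20.6 and 7.22 FPKM with geniposide and 14.7, 14.6 and 13.8 FPKM without it. Here 2 treated libraries lay above all untreated ones and the third below them. The log2 difference was −0.01 ± 0.28 with all libraries and 0.44 without the one that stood apart, where the ratio was 1.38.

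Promoter sequence is shown for CFD and CD55, the genes with the widest HepG2 differences among those in the RefSeq promoter table used. It is also shown for CFB, which had the single window with the most motif matches and whose groups overlapped. The table (GRCh38.p14) also holds C1R and CFI. A2M, C3, C1S and SERPING1 have no entry in it. Each sequence is the 250 bases before the RefSeq start, 5′ to 3′ on the gene's own strand, with motif matches in capitals. The motifs, searched on both strands, were the STAT site TTCNNNGAA, the acute-phase STAT3 site CTGGGAA, the interferon-stimulated response element (ISRE) core, the C/EBP site TTNCNNNAA, the NF-kB site, the AP-1 site TGANTCA and the short cyclic AMP element TGACG. A STAT and a C/EBP match can cover the same bases. The CFD window is chr19:859414-859663 on the plus strand, the CD55 window chr1:207321428-207321677 on the plus strand and the CFB window chr6:31945845-31946094 on the plus strand.
CFD: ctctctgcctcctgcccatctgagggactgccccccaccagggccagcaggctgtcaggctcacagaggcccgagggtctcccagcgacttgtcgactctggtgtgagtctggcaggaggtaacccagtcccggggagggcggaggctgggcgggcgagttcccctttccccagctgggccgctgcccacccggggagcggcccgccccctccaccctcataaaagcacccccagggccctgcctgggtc
CD55: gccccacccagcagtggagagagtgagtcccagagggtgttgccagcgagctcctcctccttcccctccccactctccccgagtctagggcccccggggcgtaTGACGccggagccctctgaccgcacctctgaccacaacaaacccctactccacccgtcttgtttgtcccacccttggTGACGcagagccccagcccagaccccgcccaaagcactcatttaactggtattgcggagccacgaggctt
CFB: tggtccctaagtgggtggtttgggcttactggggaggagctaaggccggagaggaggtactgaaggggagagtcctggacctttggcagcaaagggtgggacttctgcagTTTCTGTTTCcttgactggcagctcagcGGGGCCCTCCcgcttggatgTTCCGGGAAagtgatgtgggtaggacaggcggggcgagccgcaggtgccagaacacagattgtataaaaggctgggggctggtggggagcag
None of the 7 motifs matched the CFD window, which had 70.8% G and C. The CD55 window held TGACG at 147 and 70 bases before the start, a motif found in 21.2% of 35116 promoters of the same length. The CFB window held an ISRE core match at 140 bases (3.02% of promoters), an NF-kB match at 112 bases (9.96%) and 1 stretch at 92 bases that matches both the STAT site (6.57%) and the C/EBP site (30.5%). The acute-phase STAT3 site (9.15% of promoters) and the AP-1 site (6.57%) were not matched in the windows of the members in the table. The C1R and CFI windows, not shown, also held matches. A first C1R window held a C/EBP match at 107 bases and TGACG at 19 bases. A second held a stretch at 86 bases that matches both the STAT and the C/EBP site. The CFI window held a C/EBP match at 148 bases. A match describes letters only.

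CFB encodes factor B, the substrate of factor D and the protease subunit of the alternative C3 convertase. It stayed below the level filter, with 0.985, 0.862 and 0.524 FPKM in HepG2-labelled cells with geniposide and 0.444, 0.514 and 0.598 FPKM without it. The lowest treated library lay below the highest untreated one, so the groups overlapped at a ratio of 1.52. In Huh7-labelled cells CFB had 3 to 7 fragments with geniposide and 2 to 7 without it. CFD therefore exceeded its substrate's transcript by a wide margin in every group. CFI, the gene of factor I, which cleaves C3b, had 0 to 2 fragments in every library, under the level that a count of 0 allows (0.0337 to 0.0416 FPKM), and gives no comparison. CFB is at chr6:31945650-31952084 on the plus strand and shares 2249 exonic bases with a readthrough gene that spans it. CFI is at chr4:109740694-109802179 on the minus strand.

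SERPING1, the gene of C1 inhibitor, which blocks C1r and C1s, was the one gene of the 9 with more transcript in Huh7-labelled cells. It had 2.31, 1.95 and 1.79 FPKM there with geniposide and 1.28, 1.37 and 1.44 FPKM without it. The groups did not overlap, and the ratio was 1.48, or 1.56 without the library that stood apart (log2 difference 0.35 ± 0.09). In HepG2-labelled cells the levels were 0.342, 0.509 and 0.514 FPKM with geniposide and 0.280, 0.201 and 0.135 FPKM without it, from 18 to 29 fragments against 7 to 15. Those groups did not overlap either, at a ratio of 2.22 and a log2 difference of 0.27 ± 0.09, which the added 1 FPKM compresses. C1 inhibitor transcript was thus far below that of its target proteases in the HepG2-labelled cells and above it in the Huh7-labelled cells. SERPING1 is at chr11:57597387-57614853 on the plus strand.

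CD55, which speeds the decay of C3 convertases on the cell surface, was the most abundant of the 9 genes in HepG2-labelled cells. Its levels were 231, 222 and 228 FPKM with geniposide and 154, 153 and 145 FPKM without it, from 12362 to 21048 fragments a library. The groups did not overlap, at a ratio of 1.51 and a log2 difference of 0.59 ± 0.12. In Huh7-labelled cells CD55 had 7.08, 7.45 and 10.998 FPKM with geniposide and 7.18, 6.64 and 7.28 FPKM without it. The groups overlapped, with a ratio of 1.21 and the library that stood apart highest. Without that library the ratio was 1.03 and the log2 difference 0.04. CD55 is at chr1:207321376-207386804 on the plus strand.

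Counted together, 7 of the 9 genes had every geniposide library above every untreated one in HepG2-labelled cells. In CFB and CFI, which are not among the genes tested, the groups overlapped. Among all 15518 genes tested, 29.4% had their treated libraries wholly above. In Huh7-labelled cells C3 and SERPING1 were wholly above (21.3% of genes tested) and C1S wholly below (22.6%). Without the library that stood apart, C3, C1R, CFD and SERPING1 were wholly above, where 32.8% of genes tested were, and C1S and A2M wholly below, where 31.8% were, A2M on 1 fragment in each treated library. The genes were chosen with these contrasts in view, so the counts describe them and support nothing. The differences of effects, HepG2 minus Huh7, were widest for A2M (2.11 ± 0.11) and CFD (1.47 ± 0.40). They stood at 0.37 ± 0.17 for CD55, 0.30 ± 0.08 for C1S and 0.07 ± 0.18 for C3. For A2M the Huh7 side rests on 1 to 7 fragments a library, which the added 1 FPKM holds near 0. Its value thus restates the HepG2 difference and shows no measured Huh7 effect. With voom on recovered fragments it was 2.45 ± 0.77. Without the Huh7-labelled library that stood apart the difference of effects was 1.02 for CFD, 0.55 for CD55 and −0.10 for C3. The direction for C3 thus rests on that library, and it also turned with 0.1 FPKM added (−0.24), TPM scaling (−0.16) and voom on recovered fragments (−0.37). The difference for SERPING1, −0.08, likewise turned under those 3 settings, to between 0.07 and 0.52.

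**Figure D2:**
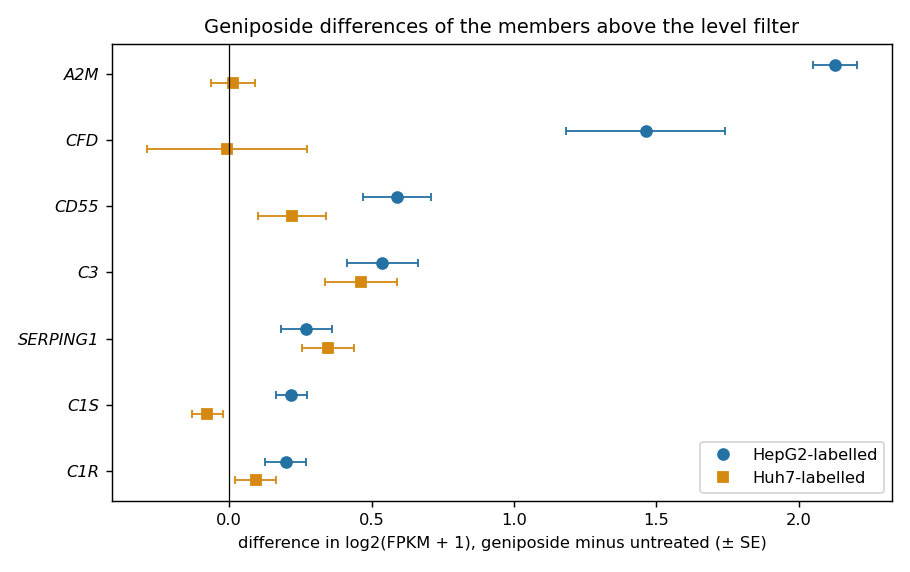
Difference in log2(FPKM + 1), geniposide minus untreated, with its SE from the limma model for the 7 genes above the level filter, in HepG2-labelled (circles) and Huh7-labelled (squares) cells. In HepG2-labelled cells A2M and CFD lie at 2.13 and 1.46. In Huh7-labelled cells A2M is drawn near 0 on 1 to 7 fragments a library, which gives no comparison. CFD lies at −0.01 there (0.44 without the library that stood apart, not drawn). C3 lies at 0.54 and 0.46 and SERPING1 at 0.27 and 0.35 in HepG2-labelled and Huh7-labelled cells.

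The balance among the genes was not the same in treated and untreated HepG2-labelled cells. A2M stood at 0.255 ± 0.00695 of the C3 level with geniposide and at 0.0577 ± 0.00549 without it. CFD stood at 2.72 ± 0.391 times C3 with geniposide and at 1.42 ± 0.0277 times C3 without it. The 9 genes summed to 424 ± 7.48 FPKM with geniposide and 251 ± 4.37 FPKM without it (SD, n = 3 each), most of it CD55. In Huh7-labelled cells the sums were 31.1, 33.0 and 21.8 FPKM with geniposide, the last from the library that stood apart, and 24.5 ± 0.457 FPKM without it, most of it CFD and CD55.

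The untreated lines, which are the same control libraries used above, differed widely. The ratio of HepG2-labelled to Huh7-labelled means was 76.1 for C1S, 35.0 for C3, 24.4 for C1R, 21.4 for CD55, 10.9 for CFB and 2.71 for CFD. A2M had 1.59 ± 0.177 FPKM in HepG2-labelled cells against 1 or 2 fragments a library in Huh7-labelled cells. SERPING1 ran the other way at 0.151. By whole groups, 8 genes were above and 1 below, where 40.1% of genes tested were wholly above and 40.1% wholly below. CFI counts among the 8 only through 1 fragment in each library against 0. Scaling moved the median gene in this comparison by −0.27 (TPM) or −0.29 (recovered fragments), and none of the members changed direction under any scaling.

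Other complement genes were taken from 5 lists of 54 genes in all, of which 15 passed the level filter. They are reported with limma tests adjusted over all genes tested. Of the 39 below the filter, 10 had 0 fragments in every library, among them C1QA, and 36 had every group mean under 0.5 FPKM. In HepG2-labelled cells 8 of the 15 rose and 3 fell with geniposide, where 21% of all genes tested rose and 21.5% fell, with a median log2 difference of 0.38 over the 15 and 0.00 over all genes. In Huh7-labelled cells 4 rose and 3 fell, where 16.4% and 18.1% of all genes did, with a median of 0.01.

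Among the initiators of the classical and lectin routes 2 of 15 genes were tested. C1RL, which encodes a protease related to C1r, rose in both lines. It had 10.2 ± 0.695 against 7.38 ± 0.315 FPKM in HepG2-labelled cells (0.42 ± 0.09, limma adjusted p = 0.00249), and the Huh7 difference was 0.32 ± 0.09 (limma adjusted p = 0.0149, lost in 3 alternatives). COLEC11, a collectin that binds sugars on microbes, rose in Huh7-labelled cells, at 1.59 ± 0.274 against 0.807 ± 0.153 FPKM (limma adjusted p = 0.00264), and had 0 fragments in all HepG2-labelled libraries. Of the terminal pathway, 1 of 7 genes was tested: C5, the start of the membrane attack complex. C5 rose to a like degree in both lines, at 1.46 ± 0.151 against 0.711 ± 0.1002 FPKM in HepG2-labelled cells and 1.30 ± 0.233 against 0.623 ± 0.130 FPKM in Huh7-labelled cells (differences 0.52 and 0.50, limma adjusted p = 0.00164 and 0.00302).

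The membrane and fluid regulators, 7 of 14 tested, are the list to which CD55 is closest in role. CD46, a membrane cofactor for the cleavage of C3b, rose in HepG2-labelled cells, at 93.0 ± 3.21 against 49.6 ± 0.603 FPKM (0.89 ± 0.04, limma adjusted p = 2.7e-07). It fell in Huh7-labelled cells, at 13.8 ± 0.352 against 16.7 ± 0.557 FPKM (−0.26 ± 0.04, limma adjusted p = 0.00131). The difference between those effects was 1.15 ± 0.06 (limma adjusted p = 2.65e-06). CD59, which blocks the membrane attack complex, had 25.5 against 24.5 FPKM in HepG2-labelled and 4.34 against 4.399 FPKM in Huh7-labelled cells and did not pass in either. Of the 3 membrane regulators, CD46 and CD55 were thus higher in treated HepG2-labelled cells, and CD59 was not called.

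The fluid-phase inhibitors of the terminal complex, CLU and VTN, rose in HepG2-labelled cells. CLU, which encodes clusterin, had 144 ± 6.91 against 110 ± 4.31 FPKM (0.38 ± 0.06, limma adjusted p = 0.000626). VTN, which encodes vitronectin, had 7.94 ± 0.0199 against 4.78 ± 0.546 FPKM (0.63 ± 0.09, limma adjusted p = 0.000275), a call lost with 0.1 FPKM added in place of 1. C4BPB, the beta chain of the C4b-binding protein, fell to 64.7 ± 1.11 FPKM against 78.0 ± 2.03 FPKM (−0.27 ± 0.04, limma adjusted p = 0.000422), with 0 fragments in Huh7-labelled cells. C4BPA and CR2 passed in neither line.

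Of the receptors of complement fragments 4 of 11 were tested. C1QBP, a mainly mitochondrial protein that binds C1q, fell in both lines, to 59.1 ± 4.37 against 149 ± 1.06 FPKM in HepG2-labelled cells and to 145 ± 8.53 against 222 ± 2.86 FPKM in Huh7-labelled cells (−1.33 and −0.61, limma adjusted p = 1.53e-07 and 4.67e-05). CALR, the endoplasmic reticulum chaperone calreticulin, also fell in both, by 0.63 in HepG2-labelled and by 0.69 in Huh7-labelled cells on the log2 scale (limma adjusted p = 2.34e-06 and 3.48e-06). ITGB2, an integrin subunit of complement receptors, rose in HepG2-labelled cells at a low level, 1.85 against 0.877 FPKM (limma adjusted p = 0.000639). Among the 15 genes tested from the 5 lists, the effects in the lines differed for 8. Of these, 5 were higher and 3 lower in HepG2-labelled cells, where 14.1% and 13.7% of all genes tested were. Of the 8, CD46, CLU and C1QBP passed in each of the 19 alternatives run. Between the untreated lines 11 of the 15 were higher in HepG2-labelled cells and 3 lower, where 36.1% and 35.8% of genes tested were.

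**Figure D3:**
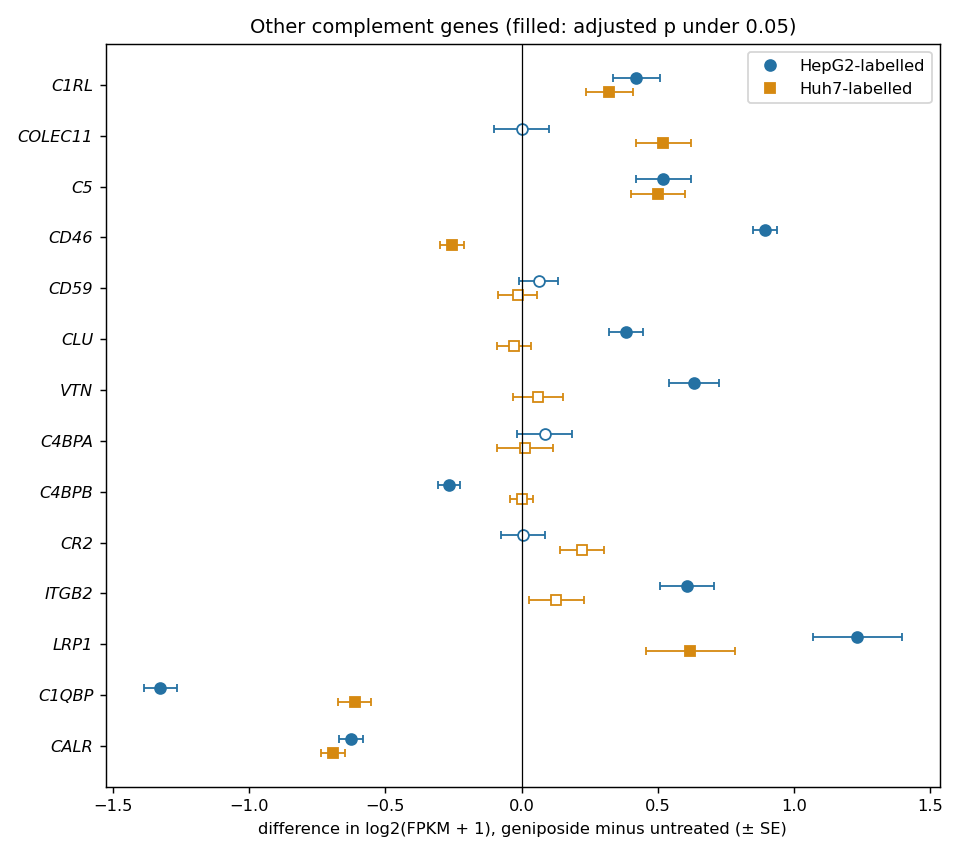
Difference in log2(FPKM + 1), geniposide minus untreated, with its SE, for 14 other complement genes above the level filter, in HepG2-labelled (circles) and Huh7-labelled (squares) cells. Filled symbols passed an adjusted p of 0.05; CD46 lies at 0.89 and −0.26, on opposite sides of 0, and C1QBP and CALR lie below 0 in both lines.

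Around A2M, 4 of 6 genes of its family and receptor were tested. LRP1, the receptor that clears alpha-2-macroglobulin bound to proteases, rose in both lines. It had 90.04 ± 18.04 against 37.3 ± 2.98 FPKM in HepG2-labelled cells (1.23 ± 0.16, limma adjusted p = 0.000153) and 13.2 ± 2.81 against 8.15 ± 0.353 FPKM in Huh7-labelled cells (0.62 ± 0.16, limma adjusted p = 0.0137, and 0.0502 without the second geniposide library). LRPAP1, a chaperone of that receptor, fell in Huh7-labelled cells, at 8.40 against 11.1 FPKM (limma adjusted p = 0.0049, and 0.0572 with each line alone). In HepG2-labelled cells it had 10.1 against 8.97 FPKM and did not pass, but was called higher in 3 alternatives. CD109, a membrane relative of A2M, had 24.9 against 22.8 FPKM in HepG2-labelled cells and did not pass. In HepG2-labelled cells A2M and LRP1 were thus higher, and PZP lower, in the same libraries.

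Of 20 other serpin genes 10 were tested, and in HepG2-labelled cells 2 rose and 5 fell (median −0.14), beside 21% and 21.5% of all genes tested. In Huh7-labelled cells 2 rose and 0 fell (median 0.03), beside 16.4% and 18.1% of all genes tested. SERPINB5, the serpin known as maspin, fell to 18.1 FPKM with geniposide, against 24.0 FPKM without it, in HepG2-labelled cells (−0.39, limma adjusted p = 6.92e-05). SERPINI1, a neuronal serpin, rose there to 6.99 against 3.89 FPKM (0.71, limma adjusted p = 0.000148). SERPINF1 rose in Huh7-labelled cells, at 38.5 against 29.3 FPKM (limma adjusted p = 0.0229, lost in 7 alternatives). Of the contact and fibrinolysis proteases that C1 inhibitor acts on, 2 of 7 were tested. PLAT, the tissue plasminogen activator, fell in HepG2-labelled cells at a low level, 0.556 against 1.42 FPKM (limma adjusted p = 0.000338).

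Of 19 hepatic acute-phase genes 1 was tested, and the rest stayed below the level filter. CP, which encodes the plasma copper protein ceruloplasmin, rose to 14.2 ± 0.631 FPKM with geniposide against 2.93 ± 0.297 FPKM without it in HepG2-labelled cells (1.95 ± 0.07, limma adjusted p = 4.55e-08). Like A2M it was near 0 in Huh7-labelled cells, at 0.0222 against 0.0218 FPKM. CP was also the third of the genes most like A2M over the 12 libraries. Likeness was the root mean square difference of log2(FPKM + 1) after centring each gene on its own mean, over 12 libraries, and the closest were NR1D1, a circadian repressor (0.181), CA5B, a mitochondrial carbonic anhydrase (0.262), and CP (0.279). CFD, at 0.441, was 29th. The closest to CFD were PPFIA4 (0.202), NOG (0.216) and BNIP3 (0.216), and the closest to C3 were FBXL16 (0.160), EHD2 (0.168) and FOSL2 (0.185). The closest to C1R was KIFC3 (0.0885), to C1S WNT7B (0.0805), to SERPING1 ZNF543 (0.0864) and to CD55 TINCR (0.163). All libraries share line and treatment groups, so this orders genes by pattern only.

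Of 21 genes for factors known to act on complement and A2M promoters, 17 were tested. In HepG2-labelled cells 7 rose and 1 fell (median 0.12), beside 21% and 21.5% of all genes tested. In Huh7-labelled cells 3 rose and 2 fell (median 0.04), beside 16.4% and 18.1% of all genes tested. OSMR, a receptor chain for oncostatin M, an inducer of acute-phase genes, rose in HepG2-labelled cells, at 58.4 against 44.3 FPKM (0.39, limma adjusted p = 4.74e-05). The NF-kB subunit gene RELA rose there, at 24.9 against 19.98 FPKM (limma adjusted p = 0.000212), as did RELB, at 4.67 against 2.62 FPKM (limma adjusted p = 0.000871). NFKB2 rose in both lines, with differences of 0.48 in HepG2-labelled and 0.50 in Huh7-labelled cells (limma adjusted p = 0.000109 and 0.000159). STAT3 rose in both, at 38.1 against 32.9 FPKM in HepG2-labelled and 5.71 against 4.43 FPKM in Huh7-labelled cells (limma adjusted p = 0.00596 and 0.000899). CEBPB, a factor of acute-phase promoters, had 56.8 against 19.8 FPKM in Huh7-labelled cells (1.47, limma adjusted p = 3.44e-06) and 143 against 116 FPKM in HepG2-labelled cells (0.30, limma adjusted p = 0.0241, lost in 6 alternatives).

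On chromosome 19, of 8 protein-coding genes tested within 100 kb of CFD, 3 rose and 2 fell in HepG2-labelled cells, and 0 rose and 2 fell in Huh7-labelled cells. With so few genes these counts are not set apart from the shares over all genes (21% and 21.5% in HepG2-labelled cells, 16.4% and 18.1% in Huh7-labelled cells). PRTN3, the gene of proteinase 3, had 14.7 ± 2.32 FPKM with geniposide against 4.95 ± 0.624 FPKM without it (1.39 ± 0.13, limma adjusted p = 1.63e-05). ELANE, the gene of neutrophil elastase, had 3.92 ± 1.12 against 1.28 ± 0.825 FPKM (1.14 ± 0.24, limma adjusted p = 0.00293). Like factor D, both products are serine proteases of the chymotrypsin fold. ARID3A, a DNA-binding protein gene, had 6.01 ± 0.405 against 3.12 ± 0.211 FPKM (0.77 ± 0.06, limma adjusted p = 4.09e-06). MISP and MED16 fell, by 0.45 and 0.30 on the log2 scale (limma adjusted p = 0.000343 and 0.00416). Of the leukocyte markers 0 of 10 reached 1 FPKM, and their sum was 0.549 to 0.819 FPKM with geniposide and 0.877 to 3.15 FPKM without it. CSF1R and LYZ carried most of the sum without geniposide, while CD14 had 0.413 against 0.133 FPKM, and the part of such cells was not tested. Around C3, 5 genes were tested, and 2 rose and 1 fell in HepG2-labelled cells while 4 rose and 0 fell in Huh7-labelled cells. The same shares over all genes apply here and below, and none of these counts was tested. GPR108 and TRIP10 rose in both lines. Around C1S, 4 of 12 rose and 3 fell in HepG2-labelled cells, and 5 rose and 1 fell in Huh7-labelled cells. For C1R these counts were 3 and 2 of 6 in HepG2-labelled cells, and 2 and 0 in Huh7-labelled cells. For CFB they were 0 and 2 of 7, and 1 and 2. For CFI they were 1 and 3 of 4, and 0 and 1. For SERPING1 they were 0 and 4 of 7, and 2 and 2. The 1 gene tested near CD55, CR2, was not called in either line.

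**Figure D4:**
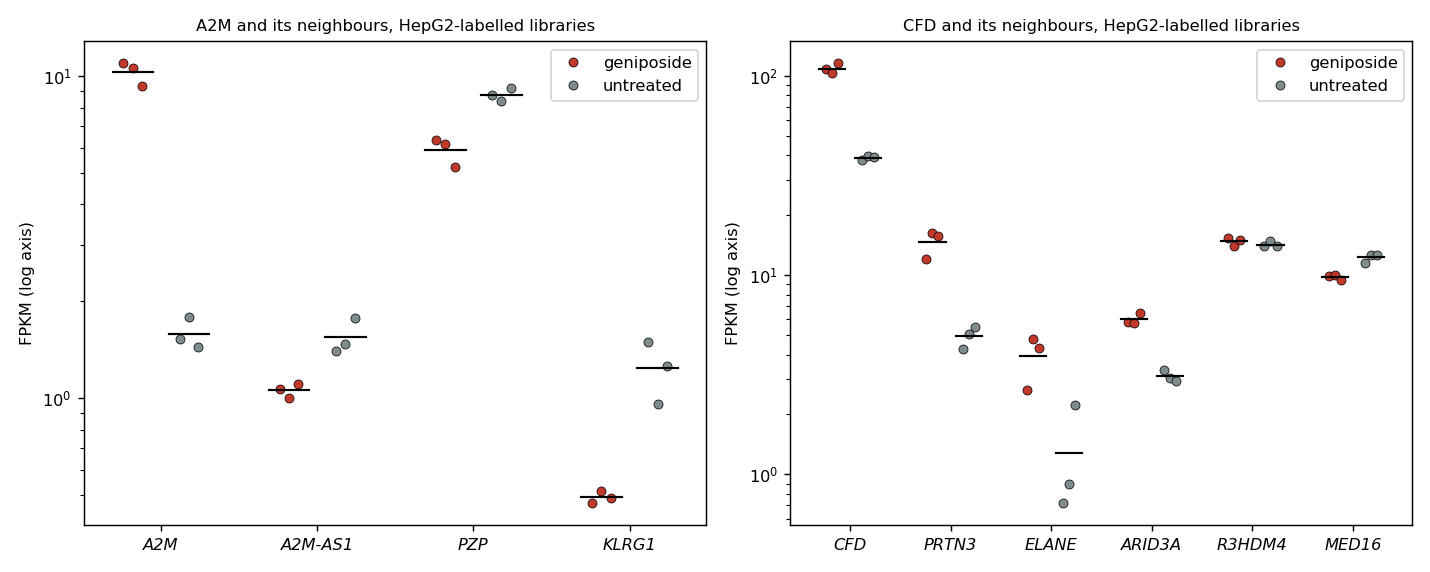
FPKM (log axis) in each HepG2-labelled library for A2M with A2M-AS1, PZP and KLRG1 (left) and for CFD with 5 of its neighbours (right), geniposide in red left of untreated in grey, with means as bars. A2M is higher with geniposide while its neighbours are lower, and CFD, PRTN3, ELANE and ARID3A are all higher.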

How the data were processed

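Poly(A) RNA of 12 samples was sequenced. FPKM was computed by the authors and deposited for 58735 genes. The submitters' processing notes name CASAVA, fastp and the build hg38, and the sources used here give no versions, aligner or counter. All gene IDs and coordinates matched GENCODE 29. FPKM times gene length gave whole fragments for 100% of values within 0.05, which set depths and floors of 3 fragments, for counting error only.

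Differences of log2(FPKM + 1) came from limma 3.58.1 (R 4.3.3), with 4 group means over 12 samples, 8 residual degrees of freedom, an intensity trend and two-sided tests. Genes needed 1 FPKM in at least 3 libraries (15518 genes), with Benjamini-Hochberg adjustment over all of them at 0.05. CFB and CFI, below it, came from the unfiltered model. Nothing in the labels shows that the 3 samples of a group were separate cultures, so p-values measure the spread between samples, which may be technical. All pairs of libraries differed by more than sampling noise (chi-square at least 2.2 times its degrees of freedom).

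The members and the 10 gene lists (124 symbols) were chosen with earlier results of these data known. Besides the members, the text names up to 4 called genes a list with the smallest p, every complement gene with a group mean of at least 10 FPKM, and the 3 genes most like each member. Neighbours and single genes not called were named after their values were seen. A few genes taken by the rule are not reported here. The fit was tested on simulated data. Alternatives covered the added value, the filter, scaling, voom on recovered fragments, each line alone, the replicate block and leaving out each library.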

Additional observations from a re-analysis of the deposited data

Results flagged for a closer look

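Among the genes named from the lists, 19 are given here that had geniposide effects that differed between the lines by limma's test of the difference (HepG2 minus Huh7, on the log2(FPKM + 1) scale, adjusted over all genes tested). The effect was the more positive one in HepG2-labelled cells for CP by 1.95 (adjusted p = 1.64e-06), CD46 by 1.15 (2.65e-06), RELB by 0.61 (0.0169), VTN by 0.57 (0.00839), LRPAP1 by 0.52 (0.00658), ITGB2 by 0.48 (0.0284), SERPINI1 by 0.47 (0.0234), SERPINE2 by 0.46 (0.00743), CLU by 0.41 (0.00696), OSMR by 0.40 (0.00113) and RELA by 0.30 (0.00482), all limma values. It was the more negative one in HepG2-labelled cells for CEBPB at −1.17 (adjusted p = 0.000177), C1QBP at −0.71 (0.000267), COLEC11 at −0.52 (0.0209), PZP at −0.49 (0.00553), PLAT at −0.45 (0.0299), SERPINB5 at −0.39 (0.00167), SERPINB6 at −0.35 (0.0111) and C4BPB at −0.27 (0.00723), all limma values.

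Several of these calls were lost in some alternatives: ITGB2 in 12, PLAT in 8, SERPINI1 in 7, C4BPB in 5, PZP, VTN and COLEC11 in 3 each, RELB in 2, and CP, OSMR and SERPINB5 in 1 each.

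For CP, OSMR, PZP, SERPINB5 and C4BPB the Huh7-labelled libraries were at or near 0 fragments, and for COLEC11 the HepG2-labelled ones were at 0. VTN had only 19 fragments with geniposide and 12 without it, summed over the Huh7-labelled libraries of a group. Its ratio of means was 1.49 in Huh7-labelled and 1.66 in HepG2-labelled cells. With voom its difference of effects was 0.19 (limma adjusted p = 0.884). C1S was flagged because every treated library was below the untreated ones in Huh7-labelled cells and above them in HepG2-labelled cells. That difference, 0.30, was not tested, since the gene was selected on its levels.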

How the results depend on the processing

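With all libraries, the A2M difference in HepG2-labelled cells ranged from 1.97 to 2.71 over the alternatives and that of CFD from 1.46 to 1.55. For members, 18 alternative values had the other sign. For 2 of them the value with all settings as chosen exceeded the replicate spread: C1R in Huh7-labelled cells was −0.0046 after quantile normalization, and its difference of effects was −0.063 with voom. The others were 6 for CFD in Huh7-labelled cells (up to 0.44), 4 and 3 for the differences of effects of C3 (down to −0.37) and SERPING1 (up to 0.52), 2 for CFI in HepG2-labelled cells and 1 for A2M in Huh7-labelled cells. In all, 481 values moved by less than that spread and 83 by more. The difference of effects of PZP was 0.25 with voom (limma adjusted p = 0.894). Of other named genes' values, 1643 kept their direction and call, 94 lost the call and 14 gained one. The 8 other complement genes whose effects differed between lines became 4 with 0.1 FPKM added, 5 with a 5 FPKM filter, 5 with TPM scaling and 3 with voom. For untreated lines the 14 called became 9 with a 5 FPKM filter, and all genes called 7220 in place of 11146. All genes called in Huh7-labelled cells became 3266 in place of 5357 with each line alone. The cause was not tested, beyond the fewer genes and samples that these settings use.

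Leaving out 1 library gave 6 to 8 other complement genes called in Huh7-labelled cells, 11 to 11 in HepG2-labelled cells, 7 to 9 for the difference and 14 to 14 for untreated lines. Over all genes it gave 4113 to 7154, 5525 to 8342, 3329 to 6170 and 10453 to 12105 for those comparisons. The same replicate number correlated at 0.02, −0.00096 and 0.013 in Huh7-labelled and at 0.019, −0.029 and −0.061 in HepG2-labelled pairs. No shared deviation was thus seen, but this cannot show whether samples of the same number were handled together. With the replicate block, 7, 11, 6 and 14 other complement genes were called and 4520, 5952, 3160 and 10901 of all genes. Depth limits A2M, C1S and CFB in Huh7-labelled cells and CFI everywhere.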
